A study of Mus musculus with 6 samples.

Results

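The 10 genes described here encode enzymes of glycolysis: Hk1 and Hk2, Gpi1, Pfkl and Pfkp, Aldoa, Pgk1, Eno1, Pkm and Ldha. They were taken by symbol from the deposited expression table, which held 13026 genes, and all 10 were found and passed the filter on low values. The study asked how kidneys that lack LIGHT, the TNF family cytokine that Tnfsf14 encodes, differ from normal kidneys after loss and return of blood flow. RNA of whole kidney was sequenced in 3 libraries of LIGHT-/- mice (LIGHTKO) and 3 libraries of LIGHT+/+ mice (WT). All were adult males on a C57BL/6 J background whose kidneys had both been made ischemic for 32 min and reperfused for 24 h. Unoperated kidneys were not analysed here, so every difference below is between genotypes after injury. Tnfsf14 was not analysed here and gave no check of the genotype labels. The labels number the libraries of a group 1 to 3 without saying that each is a separate mouse. The p-values therefore reflect spread between samples that may be technical.

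Glycolysis splits glucose into pyruvate in the cytosol and yields ATP without oxygen, and lactate dehydrogenase turns the pyruvate into lactate when respiration is limited. Several steps are served by isozymes of different genes, and tissues differ in which they use. In the kidney, proximal tubule cells mostly burn fatty acids and make glucose, while distal segments have more glycolytic capacity. Injured tubules, activated leukocytes and cells short of oxygen are known for raised glycolysis, and hypoxia-inducible factor (HIF) is a known activator of many glycolytic genes.

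None of the 10 genes passed a limma test adjusted over all genes, against 0.117% of the 12836 genes tested (15 genes). At an unadjusted p under 0.05, 1 of the 10, Aldoa, was past the limit, against 8.08% of all genes. The fitted fold change was below 0 for 7 of the 10 and above 0 for 3, with a median log2 fold change of -0.06, beside -0.01 over all genes tested. Without LIGHTKO library 3 the counts were 6 below 0 and 4 above. In 2 of the 10, Aldoa and Pgk1, all LIGHTKO values lay below all WT values, a pattern that 8.80% of all genes tested showed. In 0 of the 10 did all LIGHTKO values lie above all WT values, against 7.76% of all genes. Fold changes are LIGHTKO over WT on the log2(FPKM + 1) scale, and on it the change of genes with low values is understated. FPKM is a level scaled for transcript length and library total.

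The genes summed to 767.5, 729.2 and 741.6 FPKM in LIGHTKO libraries 1 to 3, against 803.1, 812.0 and 828.0 FPKM in WT libraries 1 to 3. That was 0.244, 0.243 and 0.247% of all FPKM in LIGHTKO and 0.252, 0.260 and 0.268% in WT. The sum was lower in each LIGHTKO library than in any WT library, and Pgk1, Aldoa, Pkm, Ldha and Eno1 make up most of it, so it mainly restates those genes.

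The order of the levels was nearly the same in both genotypes. Pgk1 was highest and Hk2 lowest, with means at percentile 98.57 and 19.64 of all genes tested. In LIGHTKO the order was Pgk1, Aldoa, Ldha, Pkm, Eno1, Gpi1, Pfkl, Hk1, Pfkp and Hk2, and in WT it was Pgk1, Aldoa, Pkm, Ldha, Eno1, Gpi1, Hk1, Pfkl, Pfkp and Hk2. In LIGHTKO the ranges of Aldoa and Ldha, of Ldha and Pkm, and of Pfkl and Hk1 overlapped. The WT ranges overlapped between Aldoa and Pkm, between Pkm and Ldha, and between Hk1 and Pfkl. No other neighbours in either order overlapped. Over the 6 libraries the coefficient of variation was smallest for Pgk1 at 3.91% and largest for Hk2 at 28.8% and Hk1 at 25.02%.

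**Figure D1:**
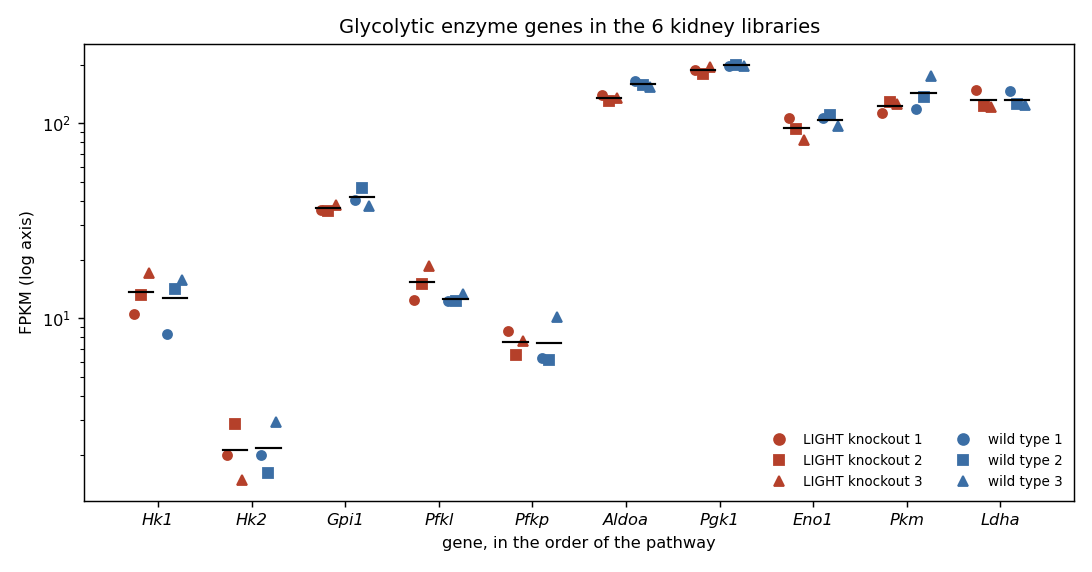
FPKM (log axis) of the 10 glycolytic enzyme genes in each library, with LIGHTKO left of WT for each gene, points for libraries and bars for group means. LIGHTKO and WT points are apart for Aldoa and, narrowly, for Pgk1, and intermingle for the other 8.

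Promoter sequences are shown for Aldoa and Pgk1, whose libraries did not overlap between genotypes, and for Ldha, whose window held, of the 10 genes, the most matches to the core of the HIF response element. Each is the 250 bases before a RefSeq transcript start (GRCm38.p6), and capitals mark the letters ACGTG or, where the match is on the other strand, CACGT. Where both coincide the capitals read CACGTG and count as a match on each strand. The regions are chr7:126799255-126799504 on the minus strand for Aldoa, chrX:106186850-106187099 on the plus strand for Pgk1 and chr7:46845554-46845803 on the plus strand for Ldha. The Aldoa and Ldha regions also lie within the annotated spans of the same genes, while the Pgk1 region ends where the gene begins.
Aldoa: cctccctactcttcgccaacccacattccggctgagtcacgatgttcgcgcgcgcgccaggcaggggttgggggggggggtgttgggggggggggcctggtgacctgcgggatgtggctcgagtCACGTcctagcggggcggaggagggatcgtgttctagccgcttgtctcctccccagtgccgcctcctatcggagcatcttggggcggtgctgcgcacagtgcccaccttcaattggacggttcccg
Pgk1: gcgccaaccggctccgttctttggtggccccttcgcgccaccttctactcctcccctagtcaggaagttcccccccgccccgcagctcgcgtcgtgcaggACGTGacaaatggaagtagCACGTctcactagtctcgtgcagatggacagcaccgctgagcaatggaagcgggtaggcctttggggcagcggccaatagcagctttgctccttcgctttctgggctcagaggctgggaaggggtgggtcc
Ldha: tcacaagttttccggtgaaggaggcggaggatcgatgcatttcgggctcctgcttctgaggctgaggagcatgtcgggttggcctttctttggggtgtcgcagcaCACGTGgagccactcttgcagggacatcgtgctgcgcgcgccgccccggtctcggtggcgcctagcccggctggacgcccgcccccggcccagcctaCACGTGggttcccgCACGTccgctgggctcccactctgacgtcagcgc

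In this Aldoa sequence the match began 126 bases before the start, and in Pgk1 the matches began 150 and 131 bases before it. Ldha held 5 matches, at 145, 144, 48, 47 and 34 bases before the start, where 145 with 144, and 48 with 47, are the strands of one CACGTG. Since Ldha was picked as the highest of the 10 genes, the share of windows with as many matches does not test it. At least 5 matches occurred in 60 of 32851 promoter windows of all genes (0.183%), each window running from 250 bases before to 50 bases after a start. RefSeq gave 17 such windows for the 10 genes. ACGTG was found on either strand in at least 1 window of 6 genes, Hk1, Hk2, Aldoa, Pgk1, Pkm and Ldha, and in 28.6% of the genes of the expression table that had a window. GCGTG, the other common form of the core, was found for 5 of the 10, Hk1, Pfkl, Pfkp, Eno1 and Ldha, and for 54.9% of genes of the table. Counted by window, ACGTG was in 7 of the 17 and in 19.6% of all windows, the same Aldoa site counting in overlapping windows. GCGTG was in 8 of the 17, overlapping windows of Eno1 included, and in 32.4% of all windows. All windows include genes outside the expression table. Of all genes with a window, 21.8% had ACGTG and 35.2% had GCGTG, which is less than among genes of the table. The window shares are therefore a lower background than the shares of table genes. The search used letters alone and measured no binding.

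Hexokinases trap glucose in the cell as its phosphate, Hk1 being the widely expressed form and Hk2 the insulin- and hypoxia-responsive form. Hk1 (ENSMUSG00000037012.18, chr10:62268855-62379908, GRCm38) stood at 10.6, 13.2 and 17.2 FPKM in LIGHTKO and at 8.29, 14.1 and 15.8 FPKM in WT. Both groups ran from low to high over nearly the same range, with means of 13.6 ± 3.33 FPKM in LIGHTKO and 12.7 ± 3.94 FPKM in WT (SD, n = 3 each). The log2 fold change was 0.11 (95% interval -0.51 to 0.74), with a limma adjusted p of 0.893, and it was -0.05 without LIGHTKO library 3. Hk2 (ENSMUSG00000000628.10, chr6:82725025-82774454) stood at 1.99, 2.86 and 1.48 FPKM in LIGHTKO and at 1.99, 1.61 and 2.93 FPKM in WT. The highest value was in WT library 3 and the lowest in LIGHTKO library 3, and the groups overlapped. Its log2 fold change was -0.03 (95% interval -0.55 to 0.48; limma adjusted p = 0.967), and it was 0.12 without LIGHTKO library 3. The sign of Hk1 also turned without WT library 1, at -0.14, and that of Hk2 without WT library 3, at 0.13. The sign of each hexokinase gene therefore depended on single libraries of both genotypes.

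Gpi1, glucose-6-phosphate isomerase (ENSMUSG00000036427.5, chr7:34201330-34230336), stood at 36.2, 35.5 and 38.2 FPKM in LIGHTKO and at 40.6, 46.8 and 37.7 FPKM in WT. WT library 2 was high and WT library 3 lay within the LIGHTKO range, so the groups overlapped. Means were 36.6 ± 1.44 FPKM in LIGHTKO and 41.7 ± 4.65 FPKM in WT (SD, n = 3 each), and the log2 fold change was -0.18 (95% interval -0.43 to 0.07; limma adjusted p = 0.627). Without WT library 2 it was -0.09.

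Phosphofructokinase commits sugar to glycolysis, and its subunits come from Pfkl (liver type), Pfkp (platelet type) and Pfkm (muscle type). Pfkl (ENSMUSG00000020277.9, chr10:77986947-78010083) stood at 12.4, 15.1 and 18.6 FPKM in LIGHTKO and at 12.2, 12.2 and 13.3 FPKM in WT. LIGHTKO libraries 2 and 3 lay above all WT libraries and LIGHTKO library 1 lay among them. Pfkl had the highest log2 fold change of the 10 genes, 0.25 (95% interval -0.10 to 0.60; limma adjusted p = 0.627), and the value was 0.11 without LIGHTKO library 3 and 0.39 without LIGHTKO library 1. Pfkp (ENSMUSG00000021196.13, chr13:6579768-6648777) stood at 8.65, 6.47 and 7.68 FPKM in LIGHTKO and at 6.28, 6.10 and 10.2 FPKM in WT. WT library 3 was above the rest and the groups overlapped, with a log2 fold change of 0.04 (95% interval -0.44 to 0.52; limma adjusted p = 0.959). Pfkp overlaps Pitrm1 on the opposite strand, and since no source used here states a strand setting, its level is uncertain.

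Aldoa, the aldolase that predominates in muscle and many proliferating cells, splits fructose-1,6-bisphosphate into triose phosphates. Aldoa (ENSMUSG00000030695.14, chr7:126795234-126800751) stood at 140.1, 130.6 and 135.2 FPKM in LIGHTKO and at 164.3, 158.3 and 153.7 FPKM in WT. Every LIGHTKO library was below every WT library, with means of 135.3 ± 4.75 FPKM in LIGHTKO and 158.8 ± 5.31 FPKM in WT (SD, n = 3 each). The LIGHTKO mean was 0.852 times the WT mean, and the log2 fold change was -0.23 ± 0.08 (SE), with a 95% interval of -0.43 to -0.03. This did not pass the test over all genes (limma adjusted p = 0.592). Without LIGHTKO library 3 the log2 fold change was also -0.23. Of the 31-base words of Aldoa transcripts, 16.98% also occur in transcripts of other genes, most in Aldoart1, which was not analysed here. The same figure was 21.63% for Gpi1 and 19.56% for Ldha. Exons of Aldoa also overlap those of Fam57b, not analysed here, on the opposite strand.

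Pgk1, phosphoglycerate kinase, performs the first ATP-yielding step. Pgk1 (ENSMUSG00000062070.12, chrX:106187100-106203699) stood at 189.0, 179.6 and 194.5 FPKM in LIGHTKO and at 198.1, 199.96 and 196.7 FPKM in WT. The groups were apart by a narrow gap between LIGHTKO library 3 and WT library 3, and they overlapped under each of the 4 other scalings tried. The log2 fold change was -0.08 (95% interval -0.28 to 0.12; limma adjusted p = 0.760). More than any other of the 10 genes, Pgk1 shares sequence with a copy: 54.73% of its 31-base words occur in other genes, most in Pgk1-rs7, so the split of reads between them is uncertain. The 2 genes summed to 215.0 ± 8.84 FPKM in LIGHTKO and 227.5 ± 2.67 FPKM in WT (SD, n = 3 each), again with no overlap between the deposited values.

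Eno1, the widely expressed enolase, makes phosphoenolpyruvate. Eno1 (ENSMUSG00000063524.13, chr4:150236721-150248879) stood at 107.0, 93.2 and 82.5 FPKM in LIGHTKO and at 106.4, 109.8 and 97.2 FPKM in WT. LIGHTKO library 1 lay among the WT libraries and LIGHTKO library 3 was lowest of all. The log2 fold change was -0.15 (95% interval -0.44 to 0.13; limma adjusted p = 0.696), -0.06 without LIGHTKO library 3 and -0.25 without LIGHTKO library 1. The near-identical copy Eno1b takes an uncertain share of these reads, and the sum of Eno1 and Eno1b, 106.5 ± 13.4 FPKM in LIGHTKO and 118.3 ± 6.31 FPKM in WT (SD, n = 3 each), also overlapped between groups.

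Pkm encodes the pyruvate kinase of most tissues, whose M1 and M2 forms are spliced from 1 gene and were not separated in these gene-level values. Pkm (ENSMUSG00000032294.16, chr9:59656368-59679375) stood at 112.7, 129.2 and 125.4 FPKM in LIGHTKO and at 119.0, 137.4 and 175.6 FPKM in WT. WT library 3 was far above the other 5, which overlapped. Means were 122.4 ± 8.64 FPKM in LIGHTKO and 144.0 ± 28.9 FPKM in WT (SD, n = 3 each), and the log2 fold change was -0.22 (95% interval -0.59 to 0.15; limma adjusted p = 0.674). The value was -0.07 without WT library 3 and -0.34 without WT library 1. Of its 31-base words, 34.66% occur in other genes, the most in a predicted gene that was not analysed here.

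Ldha, the muscle-type subunit of lactate dehydrogenase, favours making lactate. Ldha (ENSMUSG00000063229.15, chr7:46841475-46855627) stood at 149.1, 123.6 and 121.0 FPKM in LIGHTKO and at 145.9, 125.7 and 124.9 FPKM in WT. In each genotype 1 library was high and 2 lay close together, and the groups overlapped throughout. The log2 fold change was -0.01 (95% interval -0.30 to 0.27; limma adjusted p = 0.978), and 0.04 without LIGHTKO library 3. A p above the threshold does not show that the genotypes were alike for any of these genes: the widest interval, of Hk1, runs from -0.51 to 0.74, and the narrowest, of Aldoa and Pgk1, span from -0.43 to -0.03 and from -0.28 to 0.12.

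**Figure D2:**
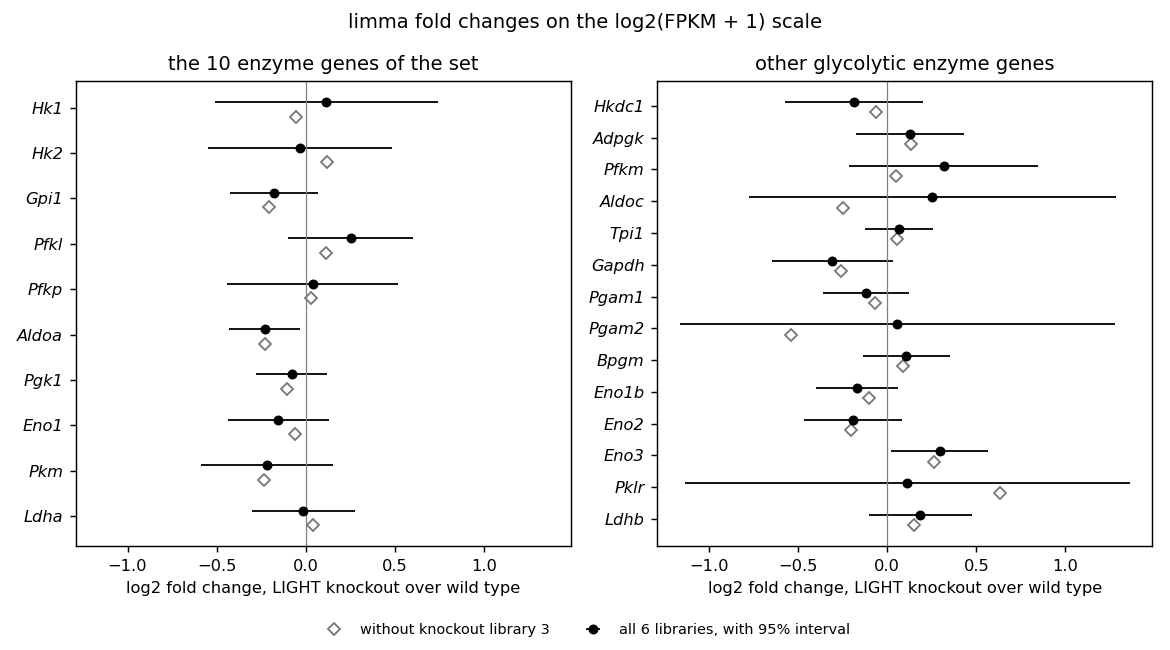
Log2 fold changes of LIGHTKO over WT from limma on the log2(FPKM + 1) scale, for the 10 genes (left) and the other glycolytic enzyme genes (right), with filled circles for all 6 libraries, bars for 95% intervals and open diamonds for the value without LIGHTKO library 3. Of the 10, only the interval of Aldoa lies clear of 0, and it did not pass adjustment over all genes.

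The genes also differed in which library was high. On the log2 scale, WT library 3 was 0.41 above the mean of the 6 libraries for Pkm and for Pfkp and 0.35 above it for Hk2, while Aldoa in that library was 0.07 above its mean. LIGHTKO library 3 was 0.39 above the mean for Hk1 and 0.40 above it for Pfkl, and 0.26 below it for Eno1 (deviation -0.26). Averaged over the 10 genes, WT library 3 was 0.13 above the mean, and the other 5 libraries lay between -0.06 and 0.00.

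**Figure D3:**
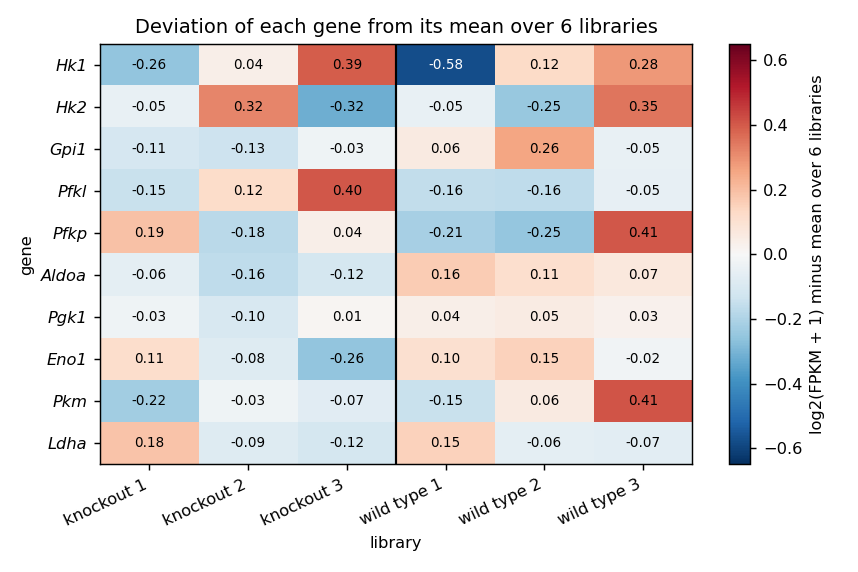
Deviation of each of the 10 genes from its mean over the 6 libraries, in log2(FPKM + 1) units, with a column per library, LIGHTKO left of WT. Aldoa has 1 sign in each genotype, while Hk1, Pkm and Pfkp differ as much within a genotype as between genotypes.

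Isozyme use within a step was given as the share of 1 gene in the summed FPKM of chosen genes of the step, which library scaling does not move. Hk3 and Hkdc1 were left out of the hexokinase sum, and Eno1b out of the enolase sum. The 6 shares reported were tested by exact two-sided permutation, where the smallest p that 3 against 3 libraries allow is 0.1, and all 6 overlapped between genotypes. Ldha held 26.1 ± 3.42% of lactate dehydrogenase FPKM in LIGHTKO and 28.8 ± 1.37% in WT (SD, n = 3 each; exact permutation p = 0.3). For Pkm against Pklr, the liver and proximal tubule pyruvate kinase, the share was 81.2 ± 8.72% in LIGHTKO and 84.2 ± 9.05% in WT (exact permutation p = 0.8, n = 3 each). Pklr itself ranged from 12.1 to 42.8 FPKM in LIGHTKO and from 15.0 to 41.0 FPKM in WT, so this share varied widely within both genotypes. Eno1 held 97.0 ± 0.681% of the sum with Eno2 and Eno3 in LIGHTKO and 97.7 ± 0.0968% in WT (exact permutation p = 0.2, n = 3 each). Eno1b averaged 12.3 FPKM in LIGHTKO and 13.9 FPKM in WT, so the part of Eno1 in all enolase FPKM was smaller. The shares of Hk2, Pfkp and Pfkm differed by -1.22, -3.06 and 2.35 percentage points (LIGHTKO minus WT; exact permutation p = 0.7, 0.5 and 0.7, n = 3 each), and those of Hk2 and Pfkm turned sign without LIGHTKO library 3, at 1.74 and -0.63 points. After adjustment over the 6 shares every p was 0.8.

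**Figure D4:**
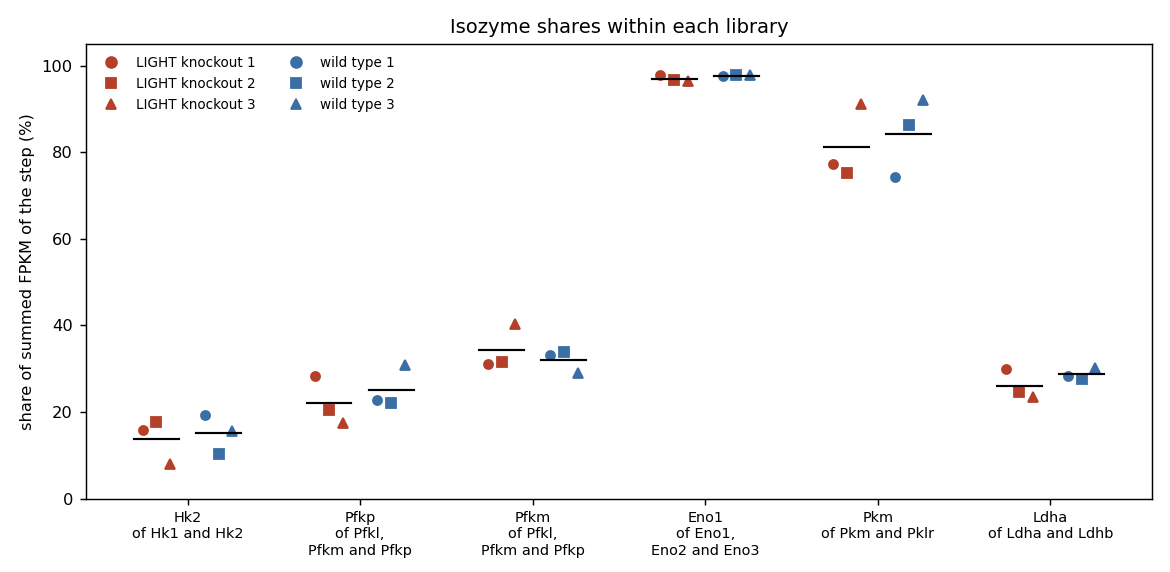
Share of 1 isozyme in the summed FPKM of the named isozymes of its step (%), in each library, LIGHTKO left of WT, with bars for group means. LIGHTKO and WT points overlap for all 6 shares, and those of Pkm spread widely in both genotypes.

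Of the cell type lists, only that of proximal tubule lay apart between the genotypes in all its markers, as Aldoa did. All 10 of 10 proximal tubule markers were higher in every LIGHTKO library than in any WT library, a pattern that 7.76% of all genes tested showed. Their summed levels were 1344 to 2118 FPKM in LIGHTKO and 962 to 1147 FPKM in WT. Of 10 markers of injured tubule, 8 had a fold change below 0, or 7 without LIGHTKO library 3, with sums of 484 to 1549 FPKM in LIGHTKO and 1757 to 1943 FPKM in WT. Only 1 of the 10, Havcr1, lay below WT in every LIGHTKO library, against 8.80% of all genes tested, and the other 9 overlapped. Havcr1 was the largest part of the WT sums, at 895.4, 770.3 and 832.9 FPKM, against 596.1, 414.9 and 142.6 FPKM in LIGHTKO. All 8 neutrophil markers tested, of 9 listed, had a fold change below 0, and they summed to 21.2 to 68.9 FPKM in LIGHTKO and 65.6 to 100.2 FPKM in WT. Of these markers, 3 lay below WT in every LIGHTKO library and 5 overlapped, as the sums did. Of 9 markers of thick ascending limb, distal tubule and collecting duct, 7 had a fold change above 0, but 1 of 9 without LIGHTKO library 3, with overlapping sums of 521.3 to 1305 FPKM in LIGHTKO and 623.7 to 963.5 FPKM in WT. Macrophage markers were split, 5 with fold changes above 0 and 5 below, or 2 above and 8 below without LIGHTKO library 3, with sums of 113.8 to 155.7 FPKM in LIGHTKO and 122.6 to 231.6 FPKM in WT, WT library 3 being highest. All 7 endothelial, all 7 fibroblast and pericyte, and all 5 erythrocyte markers overlapped between the genotypes. No marker of these lists passed the limma test over all genes, none tested was at 0 in any library, and their part in the result on Aldoa was not tested. In whole kidney, fewer cells of a type and less RNA per cell cannot be told apart.

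LIGHTKO library 3 stood apart from the rest, with correlations across genes of 0.934 to 0.956 with the other libraries, against 0.976 to 0.989 among the other 5. It had the highest proximal tubule sum and the lowest injured tubule and neutrophil sums of the 6. FPKM summed to 299667 to 318493 per library, of which mitochondrially encoded genes held 12.7 to 15.2%, and the number of reads behind the values is unknown. The median log2 fold change of the 10 genes was -0.06 with and without this library.

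A list of 16 other glycolytic enzyme genes had 15 in the table and 14 past the filter on low values. None of the 14 passed the test, 9 had a fold change above 0 and 5 below, and the median was 0.09. In 2 of the 14, Tpi1 and Eno3, all LIGHTKO values lay above all WT values, against 7.76% of all genes tested. In 2 others, Eno1b and Eno2, all lay below, against 8.80% of all genes. Eno2 averaged only 0.456 FPKM in LIGHTKO and 0.659 FPKM in WT. Without LIGHTKO library 3 there were 7 above 0 and 7 below, and the median was -0.01. Gapdh, which makes NADH at the step before Pgk1, stood at 73.8, 61.6 and 60.7 FPKM in LIGHTKO and at 76.6, 96.0 and 71.7 FPKM in WT. Only LIGHTKO library 1 overlapped the WT values, and the log2 fold change was -0.31 (95% interval -0.64 to 0.03; limma adjusted p = 0.595), or -0.18 without WT library 2. Tpi1, which interconverts the triose phosphates, stood at 134.1, 136.2 and 138.1 FPKM in LIGHTKO and at 134.1, 129.7 and 126.3 FPKM in WT. Its lowest LIGHTKO value was above its highest WT value by less than 0.1 FPKM, and the log2 fold change was 0.07 (limma adjusted p = 0.797). Pgam1, the phosphoglycerate mutase of most tissues, averaged 164.2 ± 15.5 FPKM in LIGHTKO and 178.0 ± 7.56 FPKM in WT (SD, n = 3 each).

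Eno3, the muscle enolase, stood at 2.16, 2.58 and 2.59 FPKM in LIGHTKO and at 1.99, 1.89 and 1.55 FPKM in WT. Every LIGHTKO value was above every WT value at this low level, with a log2 fold change of 0.29 (limma adjusted p = 0.592). Pfkm stood at 9.52, 9.95 and 17.7 FPKM in LIGHTKO and at 9.18, 9.35 and 9.61 FPKM in WT, and its log2 fold change of 0.32 was 0.05 without LIGHTKO library 3. Ldhb, the heart-type lactate dehydrogenase subunit, averaged 372.4 ± 22.3 FPKM in LIGHTKO and 328.3 ± 40.3 FPKM in WT (SD, n = 3 each; limma adjusted p = 0.653). Aldoc, Pgam2 and Pklr varied between libraries by so much that their signs turned when 1 library was left out. Summed by step, the groups were apart at triosephosphate isomerase, which is Tpi1 alone and was higher in LIGHTKO. They were also apart at phosphoglycerate kinase, which is Pgk1 alone, was lower, and overlapped under the other scalings tried. The other 8 of the 10 steps summed overlapped. Of all single genes tested, 7.76% lay apart with LIGHTKO higher and 8.80% with LIGHTKO lower. The aldolase step, to which Aldoa belongs, was not summed here.

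Among 13 genes of control and transport, 11 were in the table and 0 passed the test, with 3 fold changes above 0, 8 below and a median of -0.10, or 4 above, 7 below and -0.07 without LIGHTKO library 3. Pfkfb3 makes fructose-2,6-bisphosphate, the activator of phosphofructokinase. It stood at 3.26, 5.24 and 8.51 FPKM in LIGHTKO and at 3.02, 2.84 and 2.59 FPKM in WT. All LIGHTKO libraries were above all WT libraries, LIGHTKO library 3 by far, and the log2 fold change was 0.73 ± 0.27 (SE), or 0.44 without that library (limma adjusted p = 0.592 with all). Tigar, which lowers fructose-2,6-bisphosphate, stood at 3.84, 3.79 and 3.59 FPKM in LIGHTKO and at 4.31, 4.38 and 4.55 FPKM in WT. The groups did not overlap, and the log2 fold change was -0.19 (95% interval -0.40 to 0.02; limma adjusted p = 0.595).

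Slc16a1, the lactate and pyruvate transporter MCT1, stood at 20.97, 12.9 and 9.47 FPKM in LIGHTKO and at 28.1, 24.9 and 19.5 FPKM in WT. LIGHTKO library 1 overlapped WT library 3, and the log2 fold change was -0.76 ± 0.28 (SE; limma adjusted p = 0.592). The symbols Pgm1 and Pgm2 are exchanged between the deposited table and RefSeq, so positions are given. The gene listed as Pgm1 (chr5:64092950-64128351), which RefSeq names Pgm2, stood at 15.4, 16.6 and 9.39 FPKM in LIGHTKO and at 20.6, 19.2 and 21.2 FPKM in WT. Its groups did not overlap, and the log2 fold change was -0.56 (95% interval -1.05 to -0.08; limma adjusted p = 0.592), or -0.33 without LIGHTKO library 3. The gene listed as Pgm2 (chr4:99929414-99987294), which RefSeq names Pgm1 and which links glycogen to glycolysis as a phosphoglucomutase, averaged 33.5 ± 1.70 FPKM in LIGHTKO and 36.2 ± 5.54 FPKM in WT (SD, n = 3 each). Its groups overlapped (log2 fold change -0.10, limma adjusted p = 0.816). Slc2a1, the glucose transporter GLUT1, averaged 22.3 ± 5.84 FPKM in LIGHTKO and 25.6 ± 5.18 FPKM in WT (SD, n = 3 each; limma adjusted p = 0.773). Pdk1, the kinase that keeps pyruvate from the mitochondria, averaged 4.47 ± 1.38 FPKM in LIGHTKO and 5.37 ± 0.783 FPKM in WT (SD, n = 3 each; limma adjusted p = 0.709).

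Gluconeogenesis runs the shared reversible steps backwards with its own enzymes at the irreversible ones. Of 7 such genes tested, 5 had a fold change above 0 and 2 below, 0 passed, and the median was 0.58, or 0.39 without LIGHTKO library 3. In 4 of the 7 all LIGHTKO values were above all WT values, as in 7.76% of all genes tested. Slc37a4, the glucose-6-phosphate transporter, stood at 35.7, 46.8 and 72.4 FPKM in LIGHTKO and at 24.3, 31.05 and 22.7 FPKM in WT. The groups were apart, with LIGHTKO library 3 highest, and the log2 fold change was 0.91 ± 0.26 (SE; limma adjusted p = 0.592). Fbp1, which opposes phosphofructokinase, had a log2 fold change of 0.58 (95% interval 0.09 to 1.08), and Pck1, which makes phosphoenolpyruvate, one of 0.84 (95% interval 0.06 to 1.62), both with a limma adjusted p of 0.592. Without WT library 3 the value of Pck1 was 0.46. These enzymes are made mainly by proximal tubule, whose marker sums are given above, and the part of that in the values was not tested.

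Of 15 HIF subunits and other HIF targets tested, 12 had a fold change above 0 and 3 below, 0 passed, and the median was 0.11. Without LIGHTKO library 3 there were 10 above 0 and 5 below, and the median was 0.03. Vegfa, the angiogenic growth factor, stood at 25.2, 27.8 and 36.9 FPKM in LIGHTKO and at 23.2, 22.6 and 20.0 FPKM in WT. Each LIGHTKO value was above each WT value, with a log2 fold change of 0.42 (95% interval 0.05 to 0.78; limma adjusted p = 0.592), or 0.26 without LIGHTKO library 3. Bnip3, a mitophagy receptor, averaged 62.5 ± 13.2 FPKM in LIGHTKO and 45.1 ± 5.19 FPKM in WT, and Hif1a, the oxygen-regulated HIF subunit, 37.4 ± 6.74 FPKM in LIGHTKO and 31.4 ± 3.45 FPKM in WT (SD, n = 3 each).

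The genes whose pattern over the 6 libraries was most like the mean of the 10 were sought among 4982 genes outside all lists with a mean of at least 10 FPKM. Pearson's r was 0.992 for Rfwd3, a ubiquitin ligase of DNA repair, 0.992 for S100a6, a calcium-binding protein, 0.979 for Bicd2, a dynein adaptor, 0.974 for Slc44a2, a choline transporter-like protein, and 0.965 for Msl1, of the MSL chromatin complex. The pattern they share is a high value in WT library 3: S100a6 averaged 78.2 ± 5.27 FPKM in LIGHTKO and 94.3 ± 28.7 FPKM in WT (SD, n = 3 each), with 125.2 FPKM in that library. These correlations describe 6 libraries, of which WT library 3 lay farthest from the mean, and were chosen as the highest of many.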

How the data were processed

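The sample titles gave the groups and the replicate numbers. Per the labels' protocols, TRIzol total RNA went into a stranded KAPA library kit. The deposited values are FPKM per gene, computed by the authors. The submitters' processing notes list HISAT2, StringTie, FastQC and mm10, without versions, and the annotation and strand setting are not given in the sources used here. FPKM holds no read counts, so depth is unknown and no counting interval was computed.

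The filter kept 12836 of 13026 genes, those whose mean reached 0.5 FPKM. LIGHTKO was compared with WT on log2(FPKM + 1) in limma 3.58.1 (R 4.3.3) with a trended empirical Bayes variance, two-sided, with Benjamini-Hochberg adjustment over all genes kept and a threshold of 0.05. The fit was tested on simulated data. Isozyme shares were tested by exact permutation, and 1 planned share is not reported here. Sequence sharing was counted in 31-base words of GENCODE M21 transcripts, where 13005 identifiers matched, and promoters are from RefSeq. All genes of the glycolysis and control lists could be named, with at most 3 of each other list with the smallest p in the list's more frequent direction, and the 5 genes most like the 10. The members and lists were chosen with earlier results of these data known. Other pseudocounts, filters, scalings, variance models, sample weights, the replicate number as a block and leaving out each library were tried.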

Additional observations from a re-analysis of the deposited data

How the results depend on the processing

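Of the 10 genes, 0 passed the threshold under any of the settings tried, and Hk1, Hk2, Pfkp and Ldha turned sign under at least 1 setting. The cause of these changes was not tested. The number of genes called among all tested, 15, was 52 with sample weights, 0 with the replicate number as a replicate block and 0 to 11 when 1 library was left out (0 without LIGHTKO library 2, WT library 1 or WT library 3). Deviations of same-numbered libraries correlated at 0.15, -0.13 and -0.02, and those of differently numbered libraries at -0.14 to 0.18. With deviations taken within groups of 3 libraries, such values cannot show whether the numbers pair the samples. The median log2 fold change of the 10 was -0.022 scaled to the same sum, -0.084 with sample weights and -0.11 to -0.058 with 1 library left out. The count of the 10 without overlap, 2, was 1 under each of the 4 other scalings and 2 to 5 with 1 library left out. Leaving out a library makes a group smaller, so that any gene is more readily without overlap. The share of all genes without overlap was not computed for these settings, so these counts have no background. Signs turned for Ldha (0.027 scaled to the same sum, and 0.0072 with that scaling and no mitochondrially encoded genes). With sample weights they turned for Hk2 (0.33), Aldoc (-0.022), Pgam2 (-0.71), Pfkfb4 (-0.0053), Slc2a1 (0.076) and Slc16a3 (0.071). The weights also moved values that kept their sign, to -0.11 for Pkm, -0.30 for Pgm1, 0.27 for Fbp1 and 0.46 for Pck1.

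With 1 library left out, log2 fold changes ran from -0.14 to 0.28 for Hk1, -0.20 to 0.13 for Hk2, -0.077 to 0.25 for Pfkp and -0.11 to 0.060 for Ldha. The same ranges were -0.25 to 0.61 for Aldoc, -0.54 to 0.45 for Pgam2, -0.24 to 0.63 for Pklr, -0.090 to 0.090 for Pfkfb2 and -0.20 to 0.16 for Pfkfb4. They were -0.35 to 0.017 for Slc2a1, -0.20 to 0.13 for Slc16a3, -0.13 to 0.042 for Bsg, -0.13 to 0.026 for Rfwd3, -0.15 to 0.060 for Bicd2 and -0.21 to 0.012 for Msl1. Share differences ran from -3.63 to 1.74 points for Hk2, -0.63 to 3.94 for Pfkm and -8.01 to 0.93 for Pkm.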
